A study of Daphnia magna with 15 samples.

Results

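Methylated calls recurred across libraries in the gene models described here, at a low level in each when its libraries were pooled. Calls were summed over a gene model, so recurrence at the same cytosines was not tested. These gene models are 426 of the 25092 mRNA gene models of Daphnia magna that 15 bisulfite libraries listed between them. A gene model was counted as covered in a library that gave it 10 or more cytosine calls, and a covered gene model in a library is called a reading below. The 426 were covered in 6 or more libraries with a median of under 500 calls, carried methylated calls in at least 50% of the covered libraries and in at least 1 covered control, and had a pooled level, methylated calls over all calls in the covered libraries, under 10%. Of the 16835 gene models that met the conditions on coverage and depth, 786 were methylated in 50% or more of their libraries. Of these, 178 lacked a methylated control, 25 of them because no control covered them, and the other 608 divided into 182 at 10% or more and the 426. The members were chosen by their methylated counts over all 15 libraries, so their levels and their recurrence over all libraries are given as a description, with no test.

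Daphnia magna, the water flea, is a freshwater crustacean whose females usually reproduce without mating, so that a culture is close to a clone. DNA methylation in Daphnia is sparse compared with vertebrates. It is found mainly at CpG dinucleotides in the bodies of a minority of genes, and most other genes carry little. Low levels in such genomes can come from methylation in a part of the cells or at a part of the cytosines, and a value summed over a gene model does not separate them.

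The libraries were made from genomic DNA of adult females, cut with MspI, an enzyme with the recognition sequence CCGG, and treated with bisulfite, after which unmethylated cytosines are read as thymine. The 3 control libraries carry the treatment label control (founder cultures at 0 g/L NaCl) and the 12 salinity libraries the label salinity (founder cultures at 4.1 g/L NaCl), with 3 founder cultures for each exposure, 6 in all. All cultures had 16 h of light and 8 h of dark a day and a temperature of 20 °C. Generations after the founders lived in control medium, up to generation 4, and the labels do not give the generation or the culture of a library. Salinity libraries may therefore come from exposed animals or from their descendants, and 12 libraries from 3 cultures cannot all be independent. The p-values set a difference between groups against the spread between libraries, not between cultures, and that spread may in part be technical. The clone is not given in the labels. Identifiers are printed as deposited and without gene names, because 0 of them matched the 28335 genes of the reference table.

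The libraries held 1250901 to 2905380 calls. Counts of 1 and 2 methylated calls were nearly missing from them (2 and 6 listings), so a level of 0 stands for few methylated calls or none, and no upper limit was derived from it. The lowest methylated count that recurred was 3 in 11 libraries, and 4 in salinity replicates 9, 11 and 12 and control replicate 3. These 4 libraries were low in the members too, with methylated calls in 39.3%, 16.7%, 24.4% and 49.0% of the members they covered, against 47.4% (salinity replicate 3) to 84.9% in the 11 others. Salinity replicate 12 also covered the fewest members, 90, and salinity replicate 8 the most, 328.

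Levels among the members ran from 0.436% to 9.85%, with a median of 3.68% and quartiles of 2.36% and 6.05%. Below 1% lay 19 members, from 1% to under 2% lay 70, from 2% to under 5% lay 192, and from 5% to under 10% lay 145. A member rested on 147 to 5881 calls in all (median 764), of which 10 to 207 were methylated (median 26). Of the members, 324 were covered in 6 to 8 libraries, 87 in 9 to 11 and 15 in 12 to 15. Methylated calls were found in every covered library for 10 members, in at least 80% of them for 58, and in exactly 50%, the least the rule allows, for 79. On the far side of that bound, 288 gene models below 10% with a methylated control were methylated in 40% to under 50% of their libraries, while 235 members lay from 50% to under 60%. The bound thus ran through a dense range, with no gap between members and the next gene models.

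The methylated counts behind these levels were small. Of the 3348 readings of the members, 2099 (62.7%) held methylated calls. The count was 3 in 536 of them, 4 in 498, 5 in 160 and 6 in 209, so 3 or 4 calls made up 49.3% of the methylated readings. A count of 6 was more frequent than a count of 5, and a count of 12 (53 readings) more frequent than one of 11 (46 readings). Above 20 methylated calls there were 18 readings, with a highest count of 40.

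**Figure D1:**
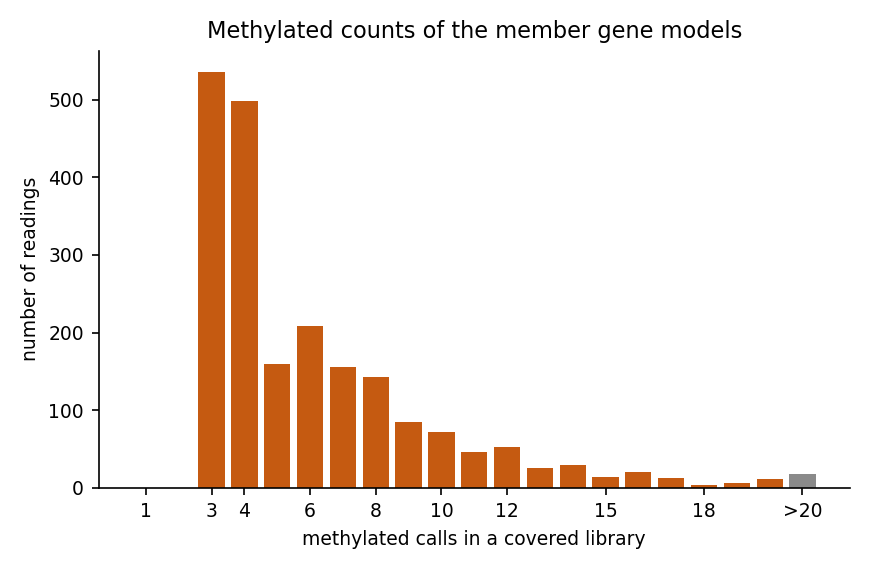
Number of readings (a member in a library that covers it) by the number of methylated calls, over the 426 members and 15 libraries; the grey bar holds the 18 readings above 20. The bars at 3 and 4 hold 536 and 498 readings, there are 0 readings below 3, and the bar at 6 (209) is taller than that at 5 (160).

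Level was lower at greater depth, which here means the number of calls of a gene model. This number joins cytosines and reads, which the counts do not separate. Where methylated calls were present in a reading of 20 to under 30 calls, their median number was 4 and the median level 15.2%. In readings of 100 to under 200 calls the median number was 5 and the median level 3.81%, and in those of 200 to under 400 calls it was also 5, with a level of 1.97%. The methylated count thus rose far less than the depth, and the level fell. Across the 426 members, Spearman's rho between the median depth and the pooled level was -0.80, and across all 608 recurrent gene models on both sides of 10% it was -0.87. These correlations are across gene models, which are not replicates, and depth is also the denominator of the level.

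The gene models on either side of the limit of 10% differed in depth. Depth is the denominator of the level and counts under 3 were nearly missing, so this division was in large part set in advance. The members had a median of 94.8 calls per covered library, and the 182 at 10% or more a median of 28, with 68 for all 16835 gene models that met the conditions on coverage. With the lowest recurring count of 3, a reading of under 30 calls cannot show a level between 0 and 10%. Of the 117 gene models among the 608 with a median of 30 calls or fewer, 14 were below 10% and 103 at or above it. Of the 203 with a median above 100 calls, 202 were below 10% and 1 was above. In the 15 libraries the median depth of the covered members was 64 to 126.5 calls, and that of the set at 10% or more was 21 to 36 calls. The share of gene models that were members rose from 0.441% of those with a median of 20 to under 30 calls to 3.34% at 50 to under 100 and 3.85% at 100 to under 200, and was 2.75% at 200 to under 500.

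**Figure D2:**
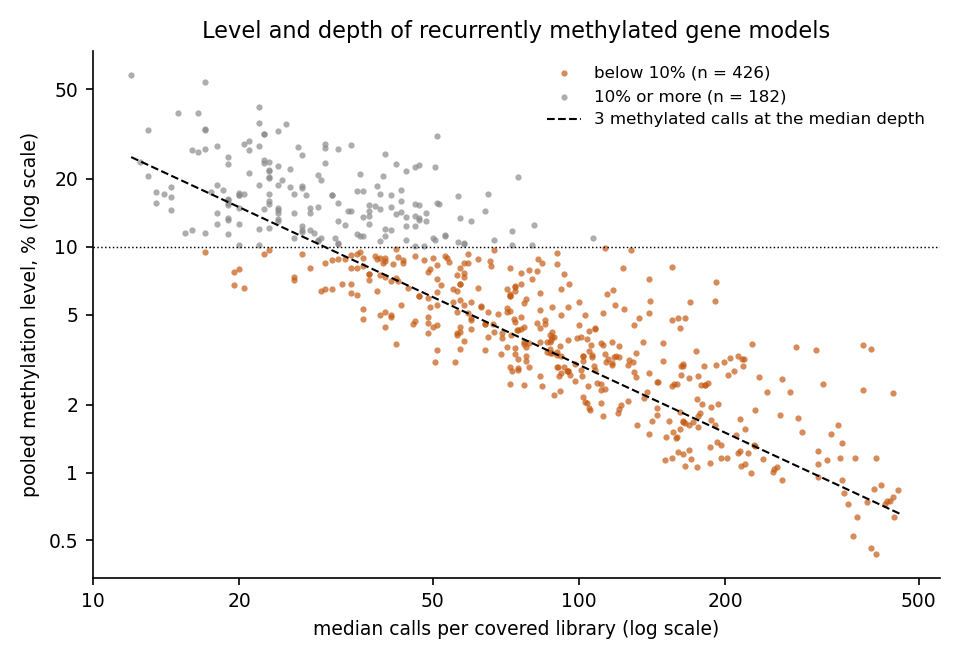
Pooled level (%) against the median calls per covered library, both on log scales, for the 608 recurrent gene models with a methylated control; each point is a gene model, the dotted line is the limit of 10% and the dashed line is the level that 3 methylated calls give at that depth. The points follow the slope of the dashed line (Spearman's rho -0.87), and above a median of 100 calls 202 of 203 lie below 10%.

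The gene models next to the limit show how narrow it is. On the inner side were Dapma7bEVm636360t1 at 9.85% (89 of 904 calls), Dapma7bEVm005869t1 at 9.78% (35 of 358) and Dapma7bEVm005351t1 at 9.69% (19 of 196). On the outer side were Dapma7bEVm010960t1 at 10.04% (45 of 448), Dapma7bEVm027903t1 at 10.13% (39 of 385) and Dapma7bEVm010157t1 at 10.16% (84 of 827). Single readings crossed it freely, since 211 of the 426 members had at least 1 reading at 10% or more, and 441 of the 2099 methylated readings were that high.

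Readings at 0 were frequent among the members (1249). For 707 of them (56.6%), the number of calls times the member's pooled level was under 3, the lowest recurring count, so that an average reading would have lain under the values found in the tables. For the other 542 that product was 3 or more, and for 63 it was 6 or more. Among the methylated readings, the product was under 3 in 724 (34.5%). Zeros and methylated readings thus overlapped widely in this product.

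Members were also read in libraries left out when the rule was applied. The rule itself was set with earlier results of these data known, and salinity libraries share founder cultures. A left-out library was thus not independent of the choice. For each library in turn the rule was applied to the other 14, and the members so chosen (293 to 486) were looked up in the library left out. They carried methylated calls there in 40.7% ± 14.5 (SD, n = 15) of cases, against 6.55% ± 2.67 (SD, n = 15) for all other gene models that met the conditions on coverage and depth in the same library. These others did not meet the rule in the 14, mostly because fewer of their libraries were methylated. A lower share among them was therefore likely from the start. The members' share was the higher one in 15 of 15 libraries, 5.52 to 9.93 times as high. In each library the lower end of its Wilson 95% interval, which covers counting error only, lay above the share of the others. The lowest share was in salinity replicate 11, with 20 of 168 (11.9%, interval 7.84% to 17.7%) against 1.45% of the others. Salinity replicate 5 had the highest, with 128 of 233 (54.9%, interval 48.5% to 61.2%) against 9.26%. Choice and reading within the 11 libraries whose lowest count was 3 gave 45.0% against 7.19%.

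The members chosen without a library were deeper there than the other gene models in the median, 64 to 124 calls against 56 to 87.5, and the shares were therefore also taken at like depth. Of readings with 50 to under 100 calls, 42.8% of the members' (490 of 1145) and 7.45% of the others' (2321 of 31147) were methylated. With 200 to under 500 calls the shares were 48.0% (271 of 565) and 6.60% (1082 of 16398). With 10 to under 30 calls they were 22.6% (65 of 287) and 5.53% (1234 of 22304). The members' share was the higher one in every library with at least 10 such readings, 11 of 11 in the shallowest class and 15 of 15 in the 4 others. In the left-out libraries the set at 10% or more was methylated in 54.9% ± 16.4 (SD, n = 15) of cases, above the members in 15 of 15 libraries. It had fewer calls, but it was chosen by a higher pooled level, so this order is not independent of the rule.

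**Figure D3:**
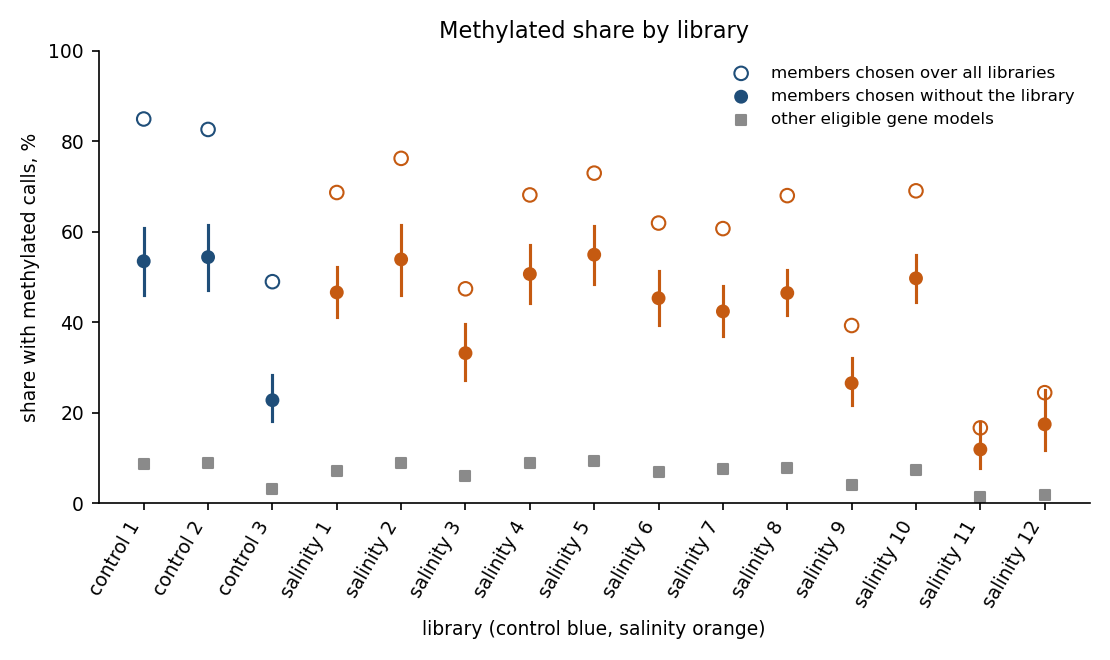
Share (%) of gene models with methylated calls in each of the 15 libraries, control in blue and salinity in orange; open circles are the members covered there, filled circles with Wilson 95% intervals the members chosen without that library, and grey squares the other eligible gene models. The filled circles (11.9% to 54.9%) lie above the squares (1.45% to 9.26%) in every library and below the open circles (16.7% to 84.9%).

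**Figure D4:**
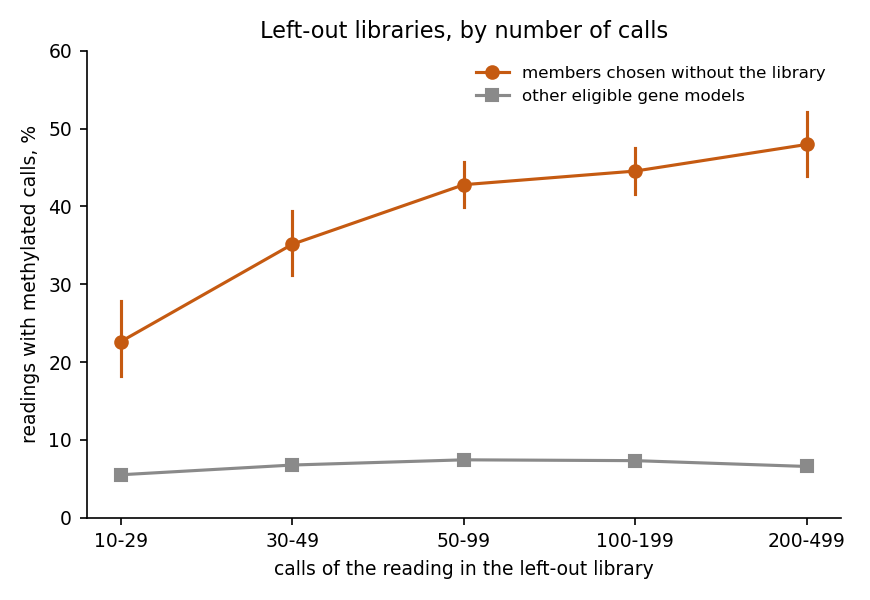
Share (%) of readings with methylated calls in left-out libraries, by the number of calls of the reading, for members chosen without the library (orange circles) and the other eligible gene models (grey squares), summed over 15 libraries with Wilson 95% intervals. The intervals treat readings as independent, although a gene model can enter once for each library that covers it. They leave out the spread between libraries and may be too narrow. The members go from 22.6% at 10 to under 30 calls to 48.0% at 200 to under 500, and the others stay between 5.53% and 7.45%.

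Between the groups, the members as chosen were lower in the salinity libraries. Methylated calls were found in 84.9%, 82.6% and 49.0% of the covered members in control replicates 1 to 3, and in 16.7% to 76.2% (median 65.0%) of them in the 12 salinity libraries. Control replicates 1 and 2 lay above all salinity libraries, and control replicate 3 lay within their range. The means were 72.2% ± 20.1 (SD, n = 3) over the controls and 56.1% ± 19.7 (SD, n = 12) over the salinity libraries, a difference of -16.0 percentage points that is smaller than the SD of either group. The rule requires a methylated control and so favours gene models that are high in the controls, and the direction is not independent of it.

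The mean level of the covered members was 5.56%, 5.52% and 3.79% in the controls and ran from 1.69% to 5.47% (median 4.43%) in the salinity libraries. Control replicates 1 and 2 were again above all salinity libraries, by less than 0.1 percentage points over the highest, and control replicate 3 within them. The means were 4.95% ± 1.01 (SD, n = 3) and 3.97% ± 1.16 (SD, n = 12). Over pooled calls the levels were 3.47% ± 0.872 (SD, n = 3) over the controls and 2.76% ± 0.762 (SD, n = 12) over the salinity libraries. In the 11 libraries whose lowest count was 3, the mean level was 5.54% in the 2 controls and 4.54% ± 0.551 (SD, n = 9) in salinity, and the methylated share 83.8% and 65.9%. The sample titles carry a second number in 3 bands of 5 libraries each, and within the bands the difference in mean level was -0.951, -1.57 and -0.446 percentage points, with 1 control each. Without control replicate 3 the difference in the methylated share went from -16.0 to -27.6 percentage points, that in mean level from -0.988 to -1.57 and that in pooled level from -0.712 to -1.21. Without control replicate 1 the difference in share was -9.67, and without control replicate 2 that in pooled level was -0.394.

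Without the condition on controls the groups came close together. The rule then added 147 gene models without methylated calls in any control that covered them, which could only lower the control values. It gave 573 gene models in all, the 426 and these 147. Their mean level was 4.18% ± 1.05 (SD, n = 3) over the controls and 4.18% ± 1.17 (SD, n = 12) over the salinity libraries, a difference of 0.00293 percentage points. They were methylated in 61.0% ± 19.6 (SD, n = 3) and 58.5% ± 19.9 (SD, n = 12) of the cases covered. Read only in left-out libraries, members chosen without that condition were methylated in 42.8% ± 16.5 (SD, n = 3) of cases over the controls and 39.3% ± 14.4 (SD, n = 12) over the salinity libraries, and their mean levels were 3.36% ± 1.19 (SD, n = 3) and 2.96% ± 0.892 (SD, n = 12). In the 11 libraries whose lowest count was 3 these left-out shares were 52.1% and 52.6% in the 2 controls and 32.7% to 55.5% in the 9 salinity libraries, and the mean levels 4.05% and 3.41% ± 0.367 (SD, n = 9). The salinity mean was the lower one in these left-out readings by less than the SD of the salinity group in the 15 libraries. In the 11 libraries the difference in mean level, -0.638 percentage points, was larger in size than the salinity SD there (0.367), with only 2 controls. The range of the shares in salinity held both control values.

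Single gene models were compared with a quasi-binomial regression on methylated and total calls, over the 8248 of all gene models covered in at least 2 control and 4 salinity libraries. Of the 426 members, 211 entered the test and 215 did not, 209 of them because only 1 control covered them. None of the 211 passed at a Benjamini-Hochberg adjusted p under 0.05 over all 8248 (0 members called, and 0% of all gene models tested). At an unadjusted p under 0.05 there were 9 members (4.27%), against 3.15% of all gene models tested. Of the 9, 8 were lower in salinity (3.79% of the members tested, background 2.5%) and 1 higher (0.474%, background 0.655%). Most gene models in the background (5934 of 8248) had no methylated call at all and could not be called in this regression. Of the 2314 with methylated calls 11.2% had such a p, more than among the members. The logits used in limma vary with the number of calls, so there a gene model without methylated calls can get a small p. Its background is therefore not like that of the regression. With limma on logit levels 0 members passed (background 0.0364%, 3 gene models) and 13 (6.16%) had an unadjusted p under 0.05 (background 3.39%). With edgeR's quasi-likelihood test 0 members passed (background 0%) and 1 (0.474%) had such a p, against 1.51% of the 2314. With a block for the 3 bands of title numbers in the regression 0 passed (background 0%) and 8 (3.79%) had such a p (background 3.38%). In the 11 libraries whose lowest count was 3, the regression could be run on 153 members, of which 0 passed (background 0%) and 7 (4.58%) had such a p (background 2.89% of 6022).

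The direction of a member followed the number of methylated controls it was chosen with. Of the 211, 110 had the lower and 101 the higher mean in salinity, with a median difference of -0.07 percentage points. Over the 2314 tested gene models with methylated calls, 889 were lower and 1425 higher, with a median difference of 0.32. Of the 80 members with 1 methylated control, 15 were lower in salinity, of the 105 with 2 it was 72, and of the 26 with 3 it was 23. The median differences in these classes were 1.17, -0.617 and -3.50 percentage points. Every covered salinity library lay below every covered control for 6 members, 2.84% of those tested against 0.242% of all, and above for 1 (0.474% against 0.0485%). Most of all gene models tested had no methylated call and could not separate in this way. The rule used methylated controls, and nothing is read from these counts.

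**Figure D5:**
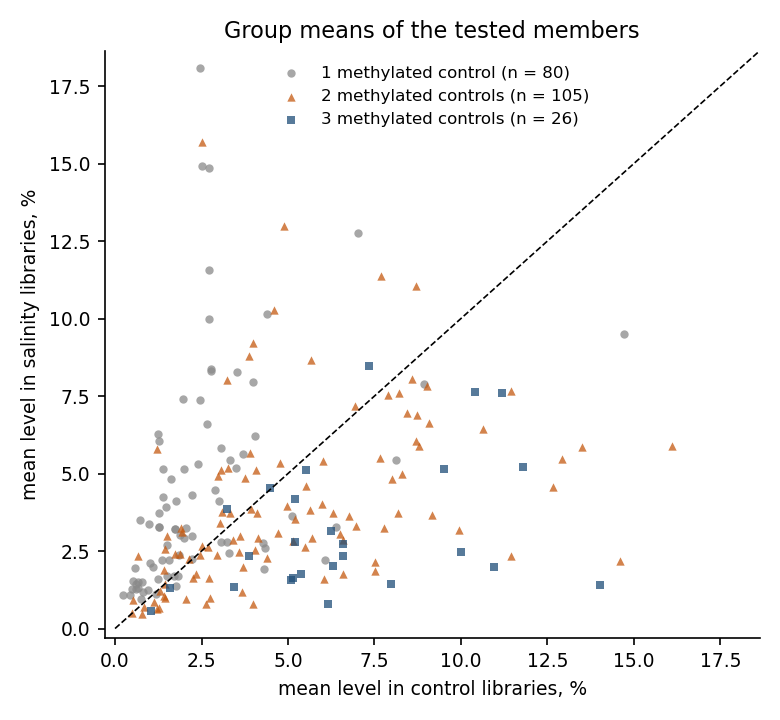
Mean level (%) of each of the 211 tested members in the covered salinity libraries against that in the covered controls, with the symbol giving the number of methylated controls and the dashed line marking equal means. Of the members with 1 methylated control 65 of 80 lie above the line, and of those with 3 methylated controls 23 of 26 lie below it.

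The 2 members with the smallest p among those lower in salinity show what such differences rest on. Dapma7bEVm015379t1 was covered in all 15 libraries. Its level was 9.23% and 13.3% in control replicates 1 and 2 and 0 in control replicate 3, and in the 12 salinity libraries it ran from 0, in 5 of them, to 5.32%, with a median of 2.69%. The 2 methylated controls were above all salinity libraries and the third control was at the bottom with 5 of them, so the groups overlapped. The means were 7.52% ± 6.83 (SD, n = 3) and 2.14% ± 2.02 (SD, n = 12). The regression gave an unadjusted p of 0.0112 and an adjusted p of 1, and limma an unadjusted p of 0.233. Without the 4 libraries whose lowest count was 4, the difference went from -5.39 to -8.43 percentage points, with an unadjusted p of 0.00141. Single controls moved it either way, to -2.48 with an unadjusted p of 0.432 without control replicate 2 and to -9.15 with a p of 0.000413 without control replicate 3.

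Dapma7bEVm015643t1 was at 7.06%, 11.2% and 11.7% in the 3 controls. In the 6 covered salinity libraries it was at 0 in replicates 1, 9 and 11, and at 3.53%, 6.38% and 4.92% in replicates 6, 7 and 8, each from 3 methylated calls. All controls lay above all salinity libraries. The means were 9.99% ± 2.55 (SD, n = 3) and 2.47% ± 2.85 (SD, n = 6), resting on 260 and 361 calls. The unadjusted p was 0.0131 in the regression, 0.0207 in limma and 0.195 in edgeR, with an adjusted p of 1 in the regression. Without those 4 libraries the difference was -5.43 percentage points and the unadjusted p 0.0820.

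Among the members with the higher mean in salinity, Dapma7bEVm000309t1 had the smallest p. It was at 0 and 2.47% in control replicates 1 and 3, and at 5.88%, 4.55%, 8.33%, 9.09%, 7.50% and 2.22% in salinity replicates 1, 5, 7, 8, 9 and 12. Of the 6 salinity libraries 5 lay above both controls, and salinity replicate 12 lay between them. The means were 1.23% ± 1.75 (SD, n = 2) and 6.26% ± 2.58 (SD, n = 6). The unadjusted p was 0.0430 in the regression, 0.0102 in limma and 0.253 in edgeR, and the adjusted p in the regression was 1. Without the 4 libraries whose lowest count was 4, 1 control was left and no test could be run. Leaving out any 1 of salinity replicates 1, 5, 7, 8 and 9 took the unadjusted p above 0.05, to 0.0532 to 0.0790.

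Dapma7bEVm629871t1 came next, at a much lower level and with many calls. It was at 0.668% in control replicate 1, from 3 of 449 calls, and at 0 in the other controls, with 390 and 376 calls. In salinity replicates 5, 6, 8 and 10 it was at 1.68%, 1.15%, 0.765% and 0.728%, all above the 3 controls, though 2 of them rest on 3 methylated calls each. The means were 0.223% ± 0.386 (SD, n = 3) and 1.08% ± 0.444 (SD, n = 4). Its unadjusted p was 0.0694 in the regression and 0.0123 in limma, with an adjusted p of 1 in the regression.

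Among the 10 members methylated in every covered library, the 4 with most covered libraries and calls differed in their spread. Dapma7bEVm004350t1 had even levels within each group. It was at 2.67%, 4.34% and 3.32% in the controls and at 1.20% to 1.52% in salinity replicates 2, 3, 8 and 10, with 328 to 461 calls in each. The 3 controls lay above the 4 salinity libraries, at 3.44% ± 0.840 (SD, n = 3) against 1.35% ± 0.136 (SD, n = 4). The regression gave an unadjusted p of 0.0143 and an adjusted p of 1, limma an unadjusted p of 0.00188, and edgeR 0.503. Without control replicate 2 the unadjusted p in the regression was 0.0613. Its dispersion, the spread between libraries of a group relative to binomial counting, was 0.411 and the lowest of all tested members.

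Dapma7bEVm636360t1, the member nearest to the limit, was at 8.39% and 9.01% in control replicates 1 and 3 and ran from 5.56% to 16.9% (median 11.2%) in 6 salinity libraries. Both controls lay inside the salinity range. Dapma7bEVm018425t1 was at 8.56% in its only covered control and from 1.29% to 5.06% (median 2.24%) in 7 salinity libraries, all below that control. Dapma7bEVm010613t1 was at 0.628% in its only covered control, the same library, and from 1.11% to 4.07% (median 2.29%) in 6 salinity libraries, all above it. With 1 control these 2 could not be tested, and they lay on opposite sides.

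The member with most calls was Dapma7bEVm022692t1. It was covered in every library with 240 to 514 calls and methylated in 14 of 15. The controls were at 3.54%, 2.47% and 3.72%, and the salinity libraries ran from 0 to 7.92% with a median of 3.81%. The means were 3.24% ± 0.677 (SD, n = 3) and 3.86% ± 2.43 (SD, n = 12), with the controls inside the salinity range and an unadjusted p of 0.810 in the regression (adjusted p of 1). The difference of 0.614 percentage points was 0.245 without the 4 libraries whose lowest count was 4. It was 0.227, 0.245 and 0.332 without control replicate 2, salinity replicate 3 and salinity replicate 12, and 0.964 without salinity replicate 8. Its dispersion was 5.39, so its levels differed between libraries of a group by more than binomial counting gives in spite of the many calls. The library at 0 was salinity replicate 8, with 396 calls, and the highest levels were in salinity replicates 3 (7.92%), 12 (6.96%) and 6 (6.06%). In the mean level over all covered members, salinity replicate 12 was among the 3 lowest libraries at 2.59%, with salinity replicates 11 (1.69%) and 9 (2.46%).

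The member with the lowest level, Dapma7bEVm010449t1, rested on 13 methylated of 2982 calls. It was at 0.752% in control replicate 1 and at 0.833%, 0.691% and 0.905% in salinity replicates 1, 8 and 9, from 3 or 4 methylated calls in each. In salinity replicates 4, 7 and 10 it was at 0, with 548, 390 and 409 calls. The control lay among the methylated salinity libraries.

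Libraries differed in the members' levels by more than binomial counting gives. The dispersion was above 1 in 210 of the 211 tested members and above 2 in 192, with a median of 3.66 and a range from 0.411 to 18.4. In the 96 tested gene models at 10% or more its median was 3.99. Calls from 1 read depend on each other and the lowest count of 3 or 4 removes small values, and the part of either in this spread was not tested. The dispersion does not come from a contrast of the rule, but recurrence is a condition on the same counts.

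Few members shared their counts with another gene model. Of the 426, 2 had identical counts in every library and thus form 1 measurement, 4 shared a listed position with another member, and 15 were listed at 2 positions across libraries. Coverage came in blocks of libraries. The members fell into 51 patterns of covered libraries, and the 8 patterns with 20 or more members held 244 of them. The most frequent pattern, control replicate 1 with salinity replicates 1, 4, 7, 8, 9 and 10, held 68 members out of 2326 eligible gene models (2.92%), and the next, all controls with salinity replicates 5, 6, 8 and 10, held 47 of 1308 (3.59%). Over all eligible gene models 2.53% were members, and the share was 2.41%, 2.59% and 2.80% for those covered in 1, 2 and 3 controls. A mean over the members of a library therefore rests on different gene models in each library, and only 6 members were covered in all 15.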

How the data were processed

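Bisulfite libraries of 15 samples (3 control, 12 salinity) were analysed. FastQC, Trim Galore 0.4.4 and Bismark 0.18.1 are named in the submitters' processing notes. How gene models were summed, in which cytosine context and on which build, is not given in the sources used here. For each gene model the authors deposited a total count of cytosine calls and a methylated count, the latter treated as an estimated count and rounded. Reading them as total and methylated calls rests on the file headers and on methylated values never exceeding totals. Levels, in percent, were computed from them. The members, the rule and the lists were chosen with earlier results of these data known, and the reading restricted to 11 libraries and the left-out readings without the condition on controls were chosen after seeing the data.

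The test was a two-sided F test in a quasi-binomial regression (Pearson dispersion floored at 1, Benjamini-Hochberg over all gene models tested). It was run on simulated data with changes larger than most differences of the members, which does not show how small a difference it would find. The alternatives were edgeR 4.0.16 and limma 3.58.1 (R 4.3.3, 0.5 added to counts for logits). Python 3.11.15 and scipy 1.17.1 were used. Replicate numbers follow sample order and pair nothing. Named gene models are the 2 lower and 2 higher in salinity with the smallest p, the 4 methylated in the highest share of libraries, the one with most calls, the lowest, and those nearest to the limit; the next 2 on each side of the limit, and those in the closing observations, were named after their values were seen. No genome was given, so no sequence or position is printed.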

Additional observations from a re-analysis of the deposited data

How the results depend on the processing

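The number of members, 426, was 52 with 10 or more covered libraries, 191 with 60% of libraries methylated, 281 under a limit of 5% and 189 with methylated counts of 3 or less set to 0 (184 of them among the 426). It was 422 and 436 at minimums of 5 and 20 calls, 425 with 1 gene model kept of the identical pair, 547 in the 11 libraries whose lowest count was 3 (323 shared), and 293 to 486 leaving out 1 library at a time. The difference in mean level, -0.988 percentage points, turned to 0.00293 without the condition on controls. By construction that setting no longer raises the controls, and the gene models it adds have no methylated calls in covered controls. Leaving out 1 library, the difference ran from -1.57 to -0.687. The difference in pooled level ran from -1.21 to -0.394 and that in methylated share from -27.6 to -9.67 in the same way, and over the 6 members covered in every library the 3 differences were -0.299, -0.229 and -16.7.

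The number of members that passed was 0 under each setting run, from 0 to 0 leaving out 1 library, with 4 to 14 at an unadjusted p under 0.05 (2.78% to 8.09% of the members tested, against 2.30% to 3.46% of all gene models in those fits). The 4 were without salinity replicate 8, which left 144 members to test, and the 14 without control replicate 1, which left 173. Without the dispersion floor 10 gene models passed over all, 0 of them members. With 8 covered salinity libraries required, 24 members could be tested. The difference of Dapma7bEVm022692t1, 0.614 percentage points in the means, had the other sign in limma and edgeR. No paired analysis was possible because the labels hold no replicate numbers. With the title bands as a replicate block in the regression, 0 members passed and 8 had an unadjusted p under 0.05. The average of the differences in mean level within bands was -0.988. It equals the value without bands by construction, because each band holds the same numbers of control and salinity libraries. Depth limits the members' levels, since a level under 10% needs more than 30 calls in a reading to appear above 0. The left-out share, 40.7%, was 41.6% at a minimum of 20 calls and 40.0% with counts of 3 or less set to 0.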

Other observations

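Of the 2099 methylated readings of the members, 2 were at 50% or more. Dapma7bEVm004522t1 was at 85% in salinity replicate 6, with 17 methylated of 20 calls, while in its other covered libraries the median was 3.55% and the highest 26.7%. Dapma7bEVm002381t1 was at 52.4% in salinity replicate 10, with 11 of 21 calls, while its other covered libraries had a median level of 0, a highest of 29.4% and a median of 102 calls. Both were singled out after their values were seen.

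The 6 members covered in every library lay on both sides in the comparison of means. Dapma7bEVm001972t1 was at 2.65% ± 4.59 (SD, n = 3) over the controls and 6.61% ± 6.46 (SD, n = 12) over the salinity libraries, and Dapma7bEVm010744t1 at 11.2% ± 2.78 (SD, n = 3) and 7.59% ± 11.5 (SD, n = 12). Both differences were smaller than the SD of the salinity group.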
